A study of Mus musculus with 6 samples.

Results

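The genes described here are 46 regulators of the hair follicle in mouse epidermis: 10 Wnt ligands, 6 Wnt receptors and co-receptors, 4 intracellular transducers and nuclear factors of the Wnt pathway, 5 Wnt inhibitors, 5 hedgehog genes, 2 ectodysplasin genes, 3 BMP ligands, 8 follicle transcription factors, 2 Lgr receptors and Crym. They were chosen by symbol from a list of pathway genes, and each of the 46 matched 1 of the 41214 gene identifiers in the count tables. Messenger RNA was sequenced from trypsinized skin, labelled epidermis, of C57BL/6 mice at postnatal day 4. Of the 6 libraries, 3 were labelled wt and 3 were labelled ARPC4 ko, the titles of the ko libraries carrying the mark hom, and the labels name no drug. Arpc4 is a subunit of Arp2/3, the complex that starts branches on actin filaments. The labels name no promoter or Cre driver for the knockout, no deleted exon and no sex. Read from the levels of Xist and Ddx3y, wt held 2 male libraries and 1 female, and ko 1 male and 2 female, so sex was not balanced. The labels also do not say whether libraries came from separate animals. By this reading each group held both sexes, so its 3 libraries were not all repeats of 1 sample. Whether libraries of the same sex came from separate animals is not known. The p-values therefore cover only the spread among these samples, which may be technical in part.

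The counts assigned to genes ran from 17561294 to 22659511 per library. Levels are given as CPM, counts over the library size in units of 1000000 after TMM scaling, in the order of replicates 1 to 3. Replicates 1 and 2 of each group carry a date in their titles, and these are called the dated libraries. The titles of replicate 3 carry no date but the mark Tryp, and these are called the undated libraries. For short, the dated and the undated libraries are each called a collection below. The labels do not say that they were collected or processed separately. Arpc4 itself was measured at 72.5, 82.5 and 73.1 CPM in wt against 67.5, 65.6 and 64.5 CPM in ko, a log2 difference of -0.21 ± 0.10 (SE) with an adjusted p of 0.469 in edgeR's quasi-likelihood test. All ko values lay below all wt values, but the difference was small and counts over the whole gene do not show whether a part of it was deleted, so every direction below rests on the genotype label. The labelled tissue showed its defining markers: Krt5 and Krt14 of basal keratinocytes lay between 813.8 and 5443 CPM, and Krt1 and Krt10 of suprabasal keratinocytes between 31502 and 70327 CPM, in all 6 libraries.

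Hair follicles form and cycle through exchanges between the epidermis and the dermal papilla beneath it. Wnt ligands bind Frizzled receptors with the co-receptors Lrp5 and Lrp6, which spares β-catenin from destruction and lets it act with Tcf and Lef factors in the nucleus. Sonic hedgehog, bound by Ptch1, releases Smo and so activates Gli factors, and drives growth of the follicle. Ectodysplasin and its receptor Edar act early in the placement of follicles, and BMP signals hold follicle stem cells at rest and are needed for the hair shaft to differentiate. In the mouse, follicles of the first coat are growing downwards and making hair at postnatal day 4.

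No member passed the test in ko against wt. Of the 46 genes, 44 passed the filter on low counts and were tested, and 0 had an adjusted p under 0.05 in edgeR's quasi-likelihood test, against 0.219% of all 13704 genes tested (30 genes, each of them higher in ko). At an unadjusted p under 0.05 there were 6 of the 44 members, or 13.6%, beside 13.2% of all genes tested. These were Wnt3a, Axin2, Bmp4 and Foxq1, which stood lower in ko (9.09% of members beside 5.25% of all genes), and Eda and Bmp7, which stood higher (4.55% beside 7.98%). In 7 members, or 15.9%, the groups did not overlap, meaning that every ko library lay on 1 side of every wt library, beside 19.4% of all genes. They were the same 6 genes and Fzd1, with 4 lower in ko (9.09% beside 8.03% of all genes) and 3 higher (6.82% beside 11.3%). By these counts the members stood close to the background of all genes. The count at an unadjusted p under 0.05 was 2 without ko replicate 2 and 10 without ko replicate 3, and 11 with the dated libraries alone. The count of members without overlap was 14 without wt replicate 2 or wt replicate 3, and 12 without ko replicate 3. It was 18 with the dated libraries alone. Groups of fewer libraries overlap less often by construction. The shares of all genes under these settings are not given here, so these counts cannot be read against the background. The 30 genes called became 0 without any 1 of the wt libraries or ko replicate 2 and 64 without ko replicate 3, while no member was called in any of these fits.

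The members' log2 differences between ko and wt ran from -1.39 for Wnt16 to 0.95 for Shh, with 21 above 0 and 23 below 0. Their median was -0.07, beside a median of 0.02 over all genes tested. It was -0.28 without ko replicate 3 (all genes -0.03) and 0.01 without wt replicate 3 (all genes 0.03). With the dated libraries alone it was -0.22 (all genes -0.00), and with sex as a covariate -0.18 (all genes 0.02). By role, the medians were -0.39 for the Wnt ligands, of which 8 of 10 lay below 0, and -0.29 for the follicle transcription factors, of which 7 of 8 lay below 0. The hedgehog genes had a median of 0.45, with 5 of 5 above 0. The receptors and transducers of the Wnt pathway lay near 0, with medians of 0.02 and 0.08. These medians are descriptions of genes that had been chosen with earlier results known, and no test was made of any group as a whole. Bulk RNA cannot tell fewer cells of a type from less RNA per cell.

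**Figure D1:**
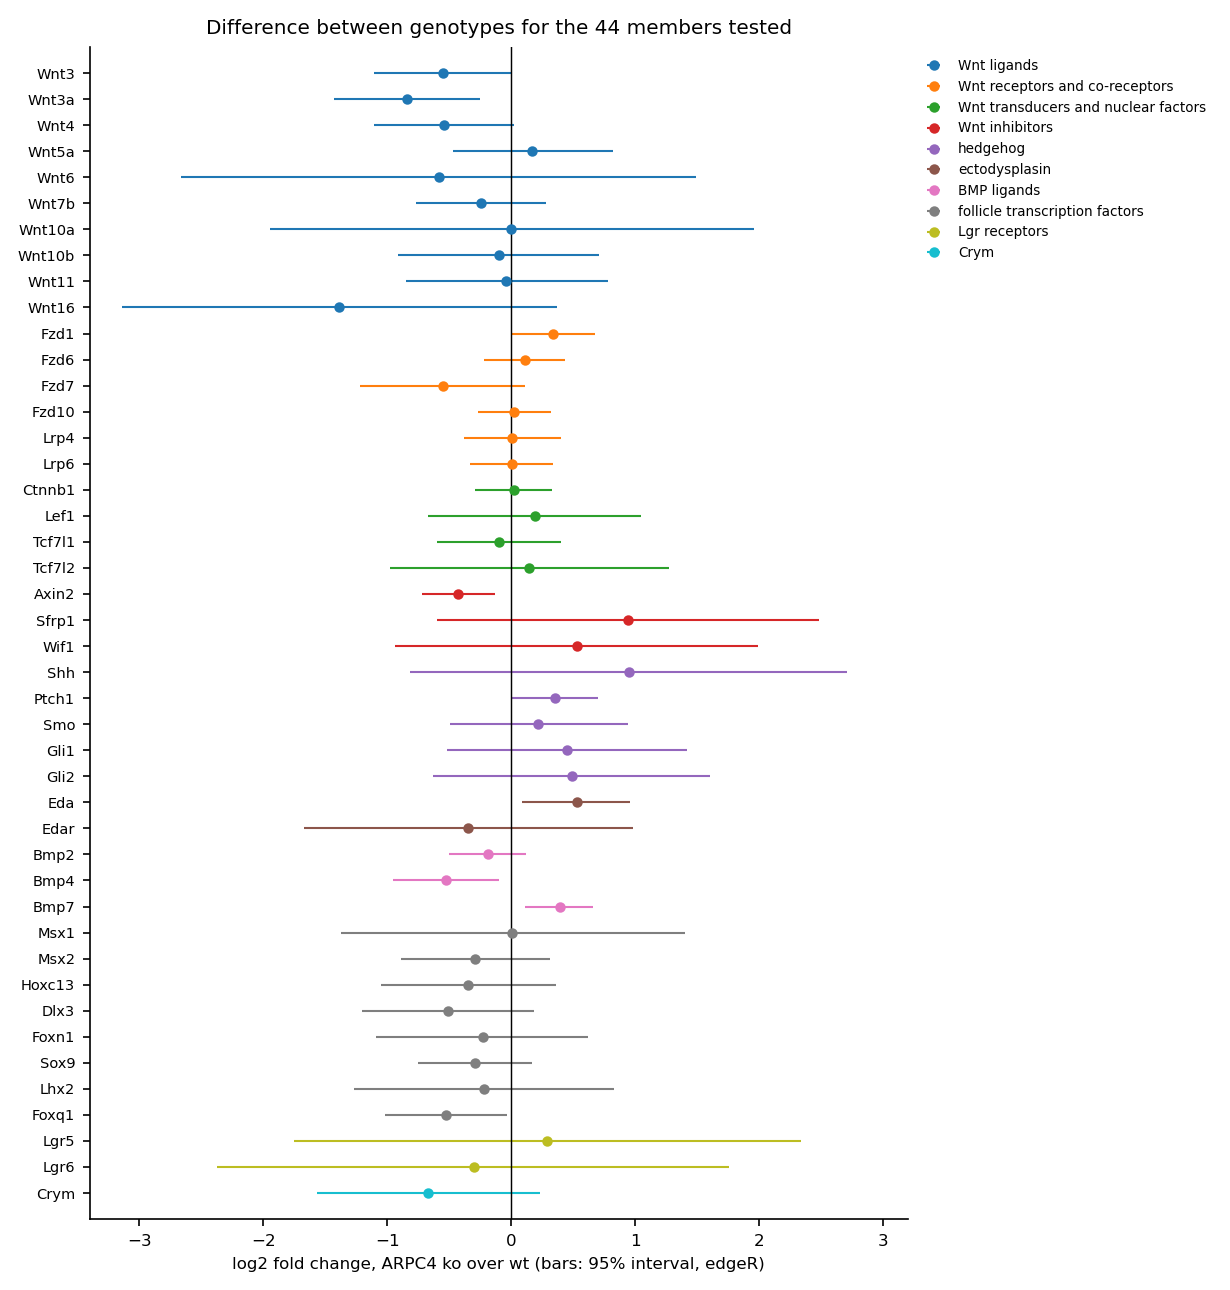
Log2 difference of ko over wt (horizontal axis) for each of the 44 members tested (vertical axis, grouped by role), with bars for the 95% interval from edgeR; n = 3 libraries per group. The intervals of Wnt3a, Axin2, Bmp4, Foxq1, Eda and Bmp7 leave out 0, while those of Shh and Wnt16, whose differences are farthest from 0, are wide and span it.

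Sequence upstream of the start is given for members at an unadjusted p under 0.05 that matched the RefSeq promoter table, and for Lef1, since the pathway's nuclear factors bind CTTTGA-like sites. The table's build is GRCm38.p6, and 28 of the 46 members matched it with 35 start sites. Members without an entry were Wnt5a, Wnt7b, Wnt10a, Fzd6, Lrp4, Lrp6, Dkk4, Sfrp1, Shh, Gli1, Bmp2, Bmp7, Hoxc13, Dlx3, Sox9, Foxq1, Lgr5 and Crym. Each run below holds the 250 bases before a start, 5′ to 3′ on the gene's strand, and capitals mark matches to the Tcf/Lef core CTTTGA on either strand. The positions are chr11:59290752-59291001 on the minus strand for Wnt3a, chr11:108920099-108920348 on the plus strand for Axin2, chr14:46390670-46390919 on the minus strand for Bmp4, chrX:99975356-99975605 on the plus strand for Eda and chr3:131156044-131156293 on the plus strand for Lef1, the most downstream of its 4 listed starts.
Wnt3a: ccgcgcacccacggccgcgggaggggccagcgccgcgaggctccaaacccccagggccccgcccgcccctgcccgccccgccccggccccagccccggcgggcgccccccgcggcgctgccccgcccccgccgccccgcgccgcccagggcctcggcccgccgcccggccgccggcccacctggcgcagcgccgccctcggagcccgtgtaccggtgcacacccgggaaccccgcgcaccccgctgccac
Axin2: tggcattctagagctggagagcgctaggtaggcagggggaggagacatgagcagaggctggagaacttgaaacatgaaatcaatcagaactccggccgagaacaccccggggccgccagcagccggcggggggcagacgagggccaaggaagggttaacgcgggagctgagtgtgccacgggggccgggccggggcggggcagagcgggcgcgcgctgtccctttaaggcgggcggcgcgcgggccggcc
Bmp4: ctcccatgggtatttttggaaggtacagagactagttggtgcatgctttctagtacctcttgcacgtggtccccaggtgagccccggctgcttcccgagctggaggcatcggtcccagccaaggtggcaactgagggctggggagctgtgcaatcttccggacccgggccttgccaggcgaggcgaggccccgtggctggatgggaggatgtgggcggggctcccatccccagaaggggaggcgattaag
Eda: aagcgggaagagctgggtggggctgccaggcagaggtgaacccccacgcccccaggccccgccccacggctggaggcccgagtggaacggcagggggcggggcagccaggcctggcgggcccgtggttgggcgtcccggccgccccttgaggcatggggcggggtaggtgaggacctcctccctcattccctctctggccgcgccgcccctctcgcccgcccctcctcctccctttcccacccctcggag
Lef1: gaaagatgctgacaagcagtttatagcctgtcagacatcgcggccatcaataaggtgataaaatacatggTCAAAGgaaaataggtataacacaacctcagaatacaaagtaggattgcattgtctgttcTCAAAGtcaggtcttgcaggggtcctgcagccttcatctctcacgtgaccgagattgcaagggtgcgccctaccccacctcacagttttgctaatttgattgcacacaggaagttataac
The printed Lef1 window held 2 matches, its other 3 windows, which lie upstream of it, held 0, and the bases just after each of the 4 starts were not found in a GENCODE M21 transcript of Lef1. The 2 matches were both on the opposite strand and so read as TCAAAG, and the windows of Wnt3a, Axin2, Bmp4 and Eda held 0. Of the Lef1 windows, only that with matches is printed. The window of the hedgehog target Ptch1, which was also planned for this search, held 0 and is not printed. Among the members' 35 windows, taken as 300 bases with the 50 after the start, 5 held CTTTGA on either strand (14.3%), beside 16% of the 32851 windows in the table. The members concerned were Dkk1, Edar, Fzd1, Lef1 and Wnt11. The bases just after the starts of Edar and Fzd1, like those of Lef1, were not found in a transcript of the gene. The printed Lef1 window lies inside the gene, which runs from 131110471 to 131224356. The Gli site GACCACCCA, searched on both strands, was in 0 of the 35 windows and in 0.253% of all windows. A match is a description of the letters, and its absence says only that these letters are not in this window.

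Among the Wnt ligands, Wnt3a was the member with the smallest p. Wnt3a (chromosome 11, 59248033 to 59290752, mm10), which signals through β-catenin, was measured at 6.43, 4.95 and 8.16 CPM in wt against 3.98, 3.25 and 3.67 CPM in ko. The ko values all lay under the wt values, and the mean was 6.51 ± 1.61 CPM (SD, n = 3) in wt and 3.63 ± 0.363 CPM in ko. The log2 difference was -0.84 ± 0.25 (SE), with an unadjusted p of 0.0118 and an adjusted p of 0.21 in edgeR. DESeq2, an alternative that called 4.25% of its 15283 genes (1.43% lower in ko), gave Wnt3a an adjusted p of 0.0487, and it was the member that test called.

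Wnt3, another activator of β-catenin that is made in the follicle's epithelium, was measured at 65.6, 51.4 and 80.8 CPM in wt against 48.2, 33.1 and 54.1 CPM in ko. Wnt4 was measured at 135, 89.8 and 168.3 CPM in wt against 83.8, 82.6 and 103.6 CPM in ko. In both genes the wt and ko ranges overlapped through wt replicate 2, the lowest of the wt libraries. The log2 differences were -0.55 ± 0.23 (SE) for Wnt3 and -0.54 ± 0.24 for Wnt4, with adjusted p of 0.391 and 0.402 in edgeR. Without wt replicate 2 they stood at unadjusted p under 0.05, as did Wnt16, Fzd7, Fzd1 and Wnt5a, and no member was called.

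Wnt16 had the lowest log2 difference of the members and also a wide spread: 9.38, 1.65 and 14.6 CPM in wt against 2.73, 1.89 and 5.19 CPM in ko. The lowest of all 6 values was that of wt replicate 2, and the wt libraries differed among themselves by 8.88 times. Its log2 difference of -1.39 ± 0.74 (SE) had a 95% interval from -3.14 to 0.37 and was -0.76 without wt replicate 3. Wnt6 spread 11.4 times among the wt libraries (6.82, 0.957 and 10.9 CPM) and 5.15 times among the ko libraries (1.64, 2.48 and 8.44 CPM). Wnt10a did likewise, at 13.3, 3.72 and 25.1 CPM in wt against 6.36, 6.15 and 29.8 CPM in ko, with a log2 difference of 0.00 ± 0.82 (SE). In these 3 genes replicate 3, the undated library, was the highest of its group.

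Wnt7b, one of the 2 most abundant Wnt ligands here, was measured at 147.3, 196.8 and 111.7 CPM in wt against 142.3, 131.9 and 111 CPM in ko, a log2 difference of -0.24 ± 0.22 (SE). Wnt10b lay at 11, 4.84 and 11.2 CPM in wt against 6.86, 8.4 and 9.97 CPM in ko. For Wnt5a and Wnt11, which often act without β-catenin, the differences were 0.17 ± 0.27 and -0.04 ± 0.34. The wt values of Wnt5a (11.2, 24.2 and 15.5 CPM) lay on both sides of its ko values (18.6, 19.5 and 19.2 CPM). Wnt11 showed the same picture, with 13.8, 25.6 and 9.88 CPM in wt around 17, 17.3 and 13.7 CPM in ko. Summed over the 10 ligands, levels were 419.8, 403.9 and 456.3 CPM in wt against 331.4, 306.5 and 358.8 CPM in ko. The ko sums lay below the wt sums, and most of each sum came from Wnt7b, Wnt4 and Wnt3.

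**Figure D2:**
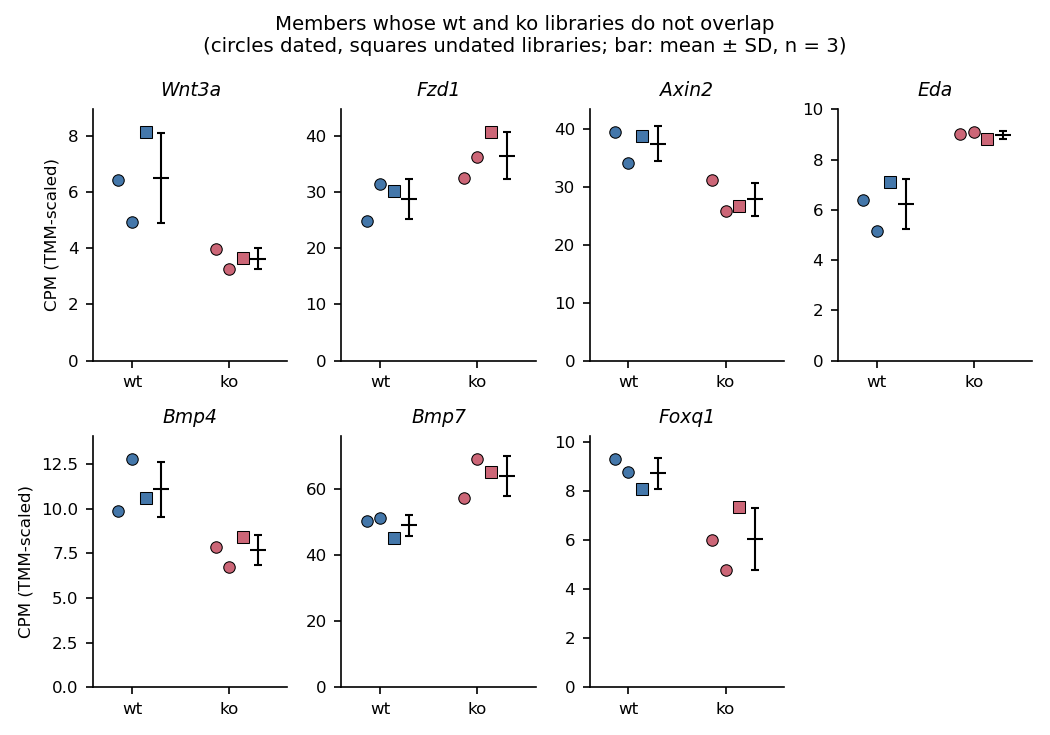
CPM in each library (vertical axes, from 0) for the members whose wt and ko groups did not overlap; each point is 1 library, squares mark the undated libraries, and bars show the group mean ± SD (n = 3). Wnt3a, Axin2, Bmp4 and Foxq1 stood lower and Fzd1, Eda and Bmp7 higher in every ko library.

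Of the receptors, Fzd1, a Frizzled receptor, was measured at 24.8, 31.5 and 30.3 CPM in wt against 32.5, 36.3 and 40.8 CPM in ko. All ko values lay above all wt values, and the log2 difference was 0.34 ± 0.14 (SE) with an unadjusted p of 0.0514 and an adjusted p of 0.384 in edgeR. Fzd7 pointed the other way, at 36.5, 28.8 and 46.4 CPM in wt against 22.2, 18.7 and 35.2 CPM in ko. Its ranges overlapped only because ko replicate 3 lay above wt replicate 2, and the log2 difference was -0.55 ± 0.28. The remaining receptors differed little between the groups: Fzd6, which orients hairs through planar cell polarity, by 0.11 ± 0.14, Fzd10 by 0.02 ± 0.12, and the co-receptor Lrp6 by 0.01 ± 0.14. Lrp4, a relative of Lrp6 that restrains Wnt signalling, differed by 0.01 ± 0.17, with a 95% interval from -0.38 to 0.40.

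Ctnnb1, which encodes β-catenin, was the most abundant member, at 663.5, 656.9 and 622.3 CPM in wt against 622.6, 693.5 and 652.2 CPM in ko. Its log2 difference was 0.02 ± 0.13 with a 95% interval from -0.29 to 0.33, so that a change of its messenger RNA beyond that range was not seen in these samples. Lef1, the nuclear partner of β-catenin in the hair matrix, was measured at 3.65, 6.65 and 8.3 CPM in wt against 6.46, 5.2 and 9.49 CPM in ko. The groups overlapped, with a log2 difference of 0.19 ± 0.36. Tcf7l1, a repressor of Wnt targets in follicle stem cells, differed by -0.10 ± 0.21 and Tcf7l2 by 0.14 ± 0.47.

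Axin2, a scaffold of the complex that destroys β-catenin and itself a widely used target gene of the pathway, stood lower in every ko library. Axin2 (chromosome 11, 108920349 to 108950783, mm10) was measured at 39.6, 34.1 and 38.9 CPM in wt against 31.2, 25.9 and 26.7 CPM in ko. The means were 37.5 ± 3.01 CPM (SD, n = 3) in wt and 27.9 ± 2.87 CPM in ko. The log2 difference was -0.43 ± 0.13 (SE), with an unadjusted p of 0.0121 and an adjusted p of 0.213 in edgeR. Axin2 and Wnt3a were the members with an unadjusted p under 0.05 in each of the 6 fits that left out 1 library. Its exons share 209 bases with the antisense gene Gm11670, and the strand option of the counting is not given in the sources used here.

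The secreted inhibitors were at low levels. Sfrp1, which binds Wnt proteins outside the cell, was measured at 5.94, 4.31 and 16.3 CPM in wt against 8.8, 11.2 and 31.2 CPM in ko. Within the dated libraries both ko values lay above both wt values, and the same held for the undated pair, whose levels were higher. The log2 difference was 0.94 ± 0.65 (SE) with an adjusted p of 0.623 in edgeR. With the collection, dated or undated, as a covariate it was 0.95 ± 0.17 with an adjusted p of 0.0318, in a fit that called 5.17% of all genes (3.2% higher in ko) and no other member. Without ko replicate 3 the log2 difference of Sfrp1 was 0.13, and without wt replicate 3 it was 1.73. Wif1, another protein that binds Wnts, lay at 0.924, 2.18 and 4.26 CPM in wt against 2.58, 2.07 and 5.93 CPM in ko. Dkk1 and Dkk4, which block Lrp5 and Lrp6, had 0 or 1 count in every library, under the 3 counts (0.132 to 0.177 CPM) that a count of 0 allows, and were not tested.

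All 5 hedgehog genes had log2 differences above 0 over the 6 libraries, although Smo lay at -0.08 without ko replicate 3, and none passed the test. The ligand Shh was measured at 0.44, 1.17 and 3.94 CPM in wt against 2.34, 2.54 and 5.87 CPM in ko. Its level in the undated wt library was above that in both dated ko libraries, so the groups overlapped, and the log2 difference was 0.95 ± 0.74 (SE) with an adjusted p of 0.681 in edgeR. Among the dated libraries alone the difference was 1.61 with an adjusted p of 0.148, and in the undated pair it was 0.57. It was 0.34 without ko replicate 3 and 2.18 without wt replicate 3. Shh shares exon bases with 9530036O11Rik (446) and Gm26894 (361) on the opposite strand.

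Ptch1, the hedgehog receptor and a target of the pathway, was measured at 19.9, 15.5 and 15.8 CPM in wt against 19.8, 22.7 and 22.8 CPM in ko. Only wt replicate 1 lay within the ko range, and the log2 difference was 0.35 ± 0.15 (SE) with an unadjusted p of 0.0514. Gli1, an activator that is also a target, lay at 4.31, 3.83 and 8.16 CPM in wt against 4.52, 7.27 and 10.5 CPM in ko, a difference of 0.45 ± 0.41. In Gli1 the ko libraries lay above the wt libraries within each collection but not across them. Gli2 differed by 0.49 ± 0.47 and Smo, the signalling receptor, by 0.22 ± 0.30, and in both genes ko replicate 3 was highest and wt replicate 2 lowest.

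**Figure D3:**
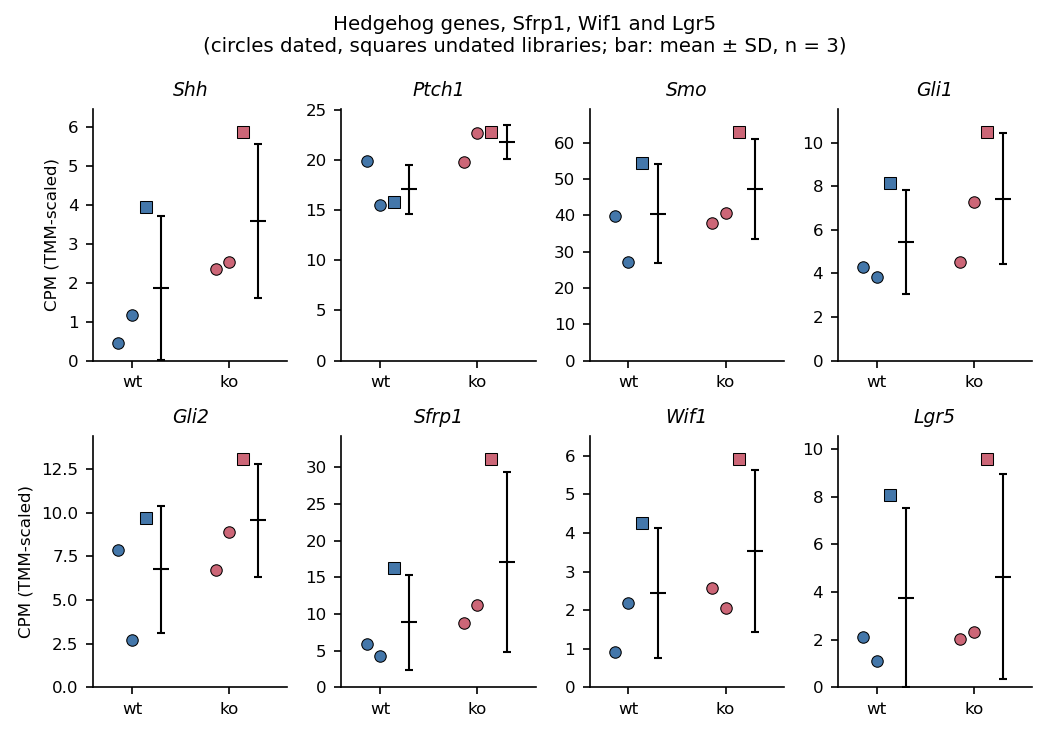
CPM in each library (vertical axes, from 0) for the 5 hedgehog genes, Sfrp1, Wif1 and Lgr5; each point is 1 library, squares mark the undated libraries, and bars show the group mean ± SD (n = 3). The undated libraries stand high in each gene but Ptch1, and the wt and ko values overlap in each of the 8 genes.

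Eda, the ligand ectodysplasin, stood higher in every ko library, at 6.38, 5.16 and 7.12 CPM in wt against 9, 9.11 and 8.81 CPM in ko. The means were 6.22 ± 0.99 CPM (SD, n = 3) and 8.97 ± 0.149 CPM, and the log2 difference was 0.53 ± 0.18 (SE) with an unadjusted p of 0.0245 and an adjusted p of 0.29 in edgeR. Its receptor Edar was at low levels, between 0.795 and 2.99 CPM over the 6 libraries, with overlapping groups and a log2 difference of -0.35 ± 0.56.

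The BMP ligands did not share a direction. Bmp4 (chromosome 14, 46383520 to 46390669, mm10) was measured at 9.86, 12.8 and 10.6 CPM in wt against 7.85, 6.74 and 8.39 CPM in ko, lower in every ko library. Its log2 difference was -0.53 ± 0.18 (SE), with an unadjusted p of 0.0224 and an adjusted p of 0.282. Bmp7 lay at 50.4, 51.2 and 45.3 CPM in wt against 57.4, 69.2 and 65.1 CPM in ko, higher in every ko library. The log2 difference of Bmp7 was 0.39 ± 0.12, with an unadjusted p of 0.014 and an adjusted p of 0.231 in edgeR. Bmp2 lay at 38, 32.6 and 40.9 CPM in wt against 30.1, 35.6 and 32.4 CPM in ko, where the groups overlapped, a difference of -0.19 ± 0.13. Bmp4 and Bmp7, both at an unadjusted p under 0.05, thus stood on opposite sides of 0.

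Of the follicle transcription factors, Foxq1, which is mutated in satin mice with abnormal hair shafts, stood lower in every ko library. Its levels were 9.33, 8.78 and 8.07 CPM in wt against 6.01, 4.79 and 7.34 CPM in ko, a log2 difference of -0.53 ± 0.21 (SE) with an unadjusted p of 0.0398 and an adjusted p of 0.343 in edgeR. A530084C06Rik on the opposite strand shares 3200 bases of exon with Foxq1, so reads of the pair could be told apart only if the counting used strand.

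Several other factors were highest in 1 wt library. Dlx3, a homeodomain protein needed for the hair shaft, was measured at 100.5, 166.8 and 79.7 CPM in wt against 99.7, 74.4 and 69.3 CPM in ko. Hoxc13, an activator of hair keratin genes, lay at 12.5, 26.4 and 14.3 CPM in wt against 13.7, 12.5 and 15.5 CPM in ko. Msx2, a homeodomain factor of the hair matrix, lay at 12.9, 23.2 and 14.6 CPM in wt against 13.5, 11.9 and 16 CPM in ko. In all 3 genes wt replicate 2 was the highest of the 6 libraries. Without it the log2 differences of Hoxc13 and Msx2 were 0.05 and 0.00 in place of -0.35 and -0.29. Dlx3 differed by -0.51 ± 0.29 (SE) over all libraries and kept its direction under every setting. Its difference was -0.65 among the dated libraries, which include wt replicate 2, and -0.20 in the undated pair.

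Foxn1, the factor lost in nude mice, was measured at 36.4, 42.9 and 18.8 CPM in wt against 34.8, 30.8 and 17.8 CPM in ko. The undated libraries were the lowest, and ko lay below wt within each collection, by a log2 difference of -0.30 among the dated and -0.08 in the undated libraries. Sox9, a factor of follicle stem cells and the outer root sheath, lay at 43.8, 43 and 34.2 CPM in wt against 30.8, 26.5 and 41.6 CPM in ko. Among the dated libraries it stood lower in ko, with a difference of -0.63 and an adjusted p of 0.0834, while the undated pair differed by 0.28. Lhx2, another factor of follicle stem cells, did likewise, with -0.63 and 0.19, and Msx1 differed by 0.01 ± 0.58 over all libraries.

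Lgr5 and Lgr6, receptors for R-spondins that mark stem cells of the lower follicle and of the upper follicle and epidermis, varied widely between libraries within each group. Lgr6 was measured at 33.3, 5.27 and 40.9 CPM in wt against 8.1, 10.7 and 45.7 CPM in ko. Lgr5 lay at 2.11, 1.12 and 8.07 CPM in wt against 2.04, 2.31 and 9.6 CPM in ko. Both genes were highest in the undated libraries, and the 95% intervals of the ko difference ran from -1.75 to 2.34 for Lgr5 and from -2.37 to 1.76 for Lgr6. Crym, a thyroid hormone binding protein found in growing follicles, lay at 64.2, 130.9 and 51.2 CPM in wt against 65, 52.5 and 37.3 CPM in ko, a difference of -0.67 ± 0.38, again with wt replicate 2 highest.

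**Figure D4:**
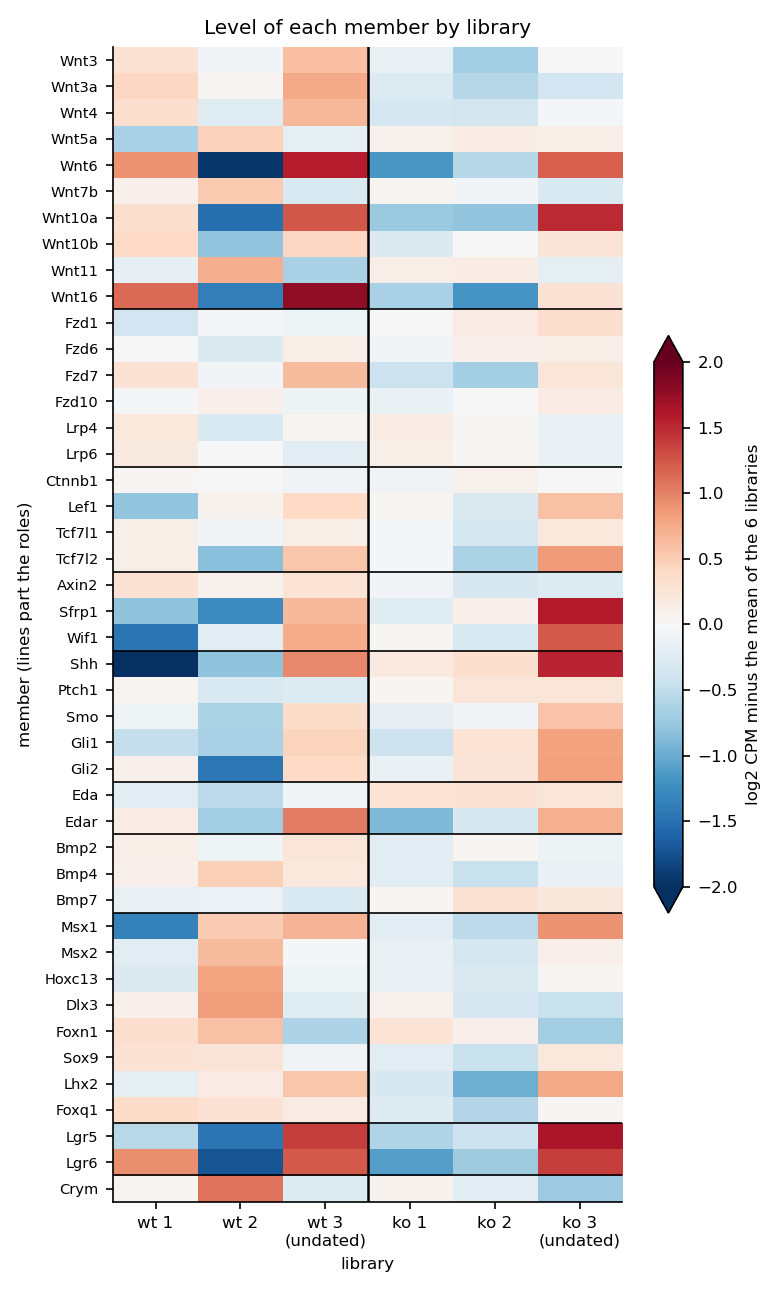
Log2 CPM of each tested member (rows, by role) in each library (columns), relative to the gene's mean over the 6 libraries; colours saturate beyond 2 in either direction. The undated libraries share high levels of Lgr5, Lgr6, Wnt10a, Sfrp1 and the hedgehog genes other than Ptch1, and wt replicate 2 stands low in Wnt6, Wnt16 and Lgr6.

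Per length of exon, in CPM per kb, Ctnnb1 was the highest member in wt at 124.7, followed by Dlx3 at 44.4, Wnt4 at 31.2, Wnt7b at 31, Fzd10 at 28.4, Crym at 24.2 and Wnt3 at 21.4. The spread between libraries exceeds the steps between Wnt4, Wnt7b and Fzd10 in that order. Among the lowest of those tested were Lgr5 at 0.367, Edar at 0.506, Shh at 0.65 and Lef1 at 0.705 CPM per kb. In wt the ligands Wnt4, Wnt7b and Wnt3 were measured at higher levels per length than any receptor but Fzd10. In ko the order differed, with Fzd10 at 28.9 above Wnt7b at 26.2 and Wnt4 at 21.5, and Lrp4 at 15 next to Wnt3 at 14.7.

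Most members ranged more widely among the wt libraries than the group means differed, as did most genes. A range and a difference of means are unlike measures, and the count for the ko range is not given here. In 38 of the 44 members (86.4%) the range of the wt libraries on the log2 scale was wider than the difference between the groups, beside 78.9% of all genes. Both undated libraries lay above all 4 dated ones in 17 members (38.6%, beside 19.7% of all genes tested), among them Lgr5, Lgr6, Shh, Smo, Gli1, Gli2, Sfrp1, Wif1, Lef1, Edar, Wnt6 and Wnt10a. They lay below in 5 members (11.4%, beside 19.7%): Wnt7b, Wnt11, Lrp6, Foxn1 and Crym. The difference between collections was not tested. What the collections are is not stated in the labels beyond the date or the mark Tryp in the titles. Marker genes of basal keratinocytes moved the same way, summing to 6602, 1839 and 8362 CPM in wt against to 2900, 4294 and 10900 CPM in ko, highest in the undated libraries. Suprabasal markers were lowest there, at 80305 CPM in wt against 82265 CPM in ko, against 105371 to 153829 CPM in the dated libraries, and the part of these cells in the members' levels was not tested.

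Read within collections, ko lay on 1 side of wt among both the dated libraries and the undated pair in 16 of the 44 members (36.4%), beside 37.4% of all genes, a count added after seeing the data. Of these, 10 were lower in ko (22.7% beside 17.5%): Wnt3, Wnt3a, Wnt4, Wnt7b, Fzd7, Axin2, Bmp4, Dlx3, Foxn1 and Foxq1. Another 6 were higher (13.6% beside 19.9%): Fzd1, Sfrp1, Shh, Gli1, Eda and Bmp7. In the undated pair the difference was -1.15 for Wnt3a, -0.54 for Axin2, -0.58 for Wnt3 and -0.70 for Wnt4, and among the dated libraries -0.68, -0.39, -0.55 and -0.46 on the log2 scale. Others were close to 0 in the undated pair, with -0.01 for Wnt7b, -0.08 for Foxn1 and -0.14 for Foxq1. The dated libraries alone, with 2 per group and 1.64% of genes called, gave 0 members past the threshold.

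None of the other genes of these pathways was called either. Of 148 further genes that matched an identifier, 118 were tested and 0 were called, with an unadjusted p under 0.05 for 5 that stood higher and 2 that stood lower. These 7 are 5.93% of the genes tested, beside 13.2% of all genes, and the groups did not overlap in 14 of the 118 (11.9%, beside 19.4%). The further genes had a median log2 difference of -0.02. Apcdd1, a membrane inhibitor of Wnt signalling, stood lower in every ko library, at 155.6, 112.1 and 177.5 CPM in wt against 95.3, 79.9 and 108.3 CPM in ko (-0.65 ± 0.20, adjusted p 0.243 in edgeR). Tle4, a co-repressor of Tcf factors, stood higher in every ko library, at 24, 25.3 and 28 CPM in wt against 34.1, 35.3 and 35.9 CPM in ko (0.45 ± 0.11, adjusted p 0.154). Tle1 and Tnks2 lay above 0 by 0.51 and 0.27, Sfrp2 by 1.47, and Dkkl1 lay below 0 by -0.58 on the log2 scale.

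Rspo1, an R-spondin that strengthens Wnt signals, lay under 1 CPM in every library, at 0.176, 0.319 and 0.363 CPM in wt against 0.746, 0.887 and 0.524 CPM in ko (1.31 ± 0.41, adjusted p 0.248 in edgeR). Fzd4 differed by 0.50 and Lgr4 by -0.35, and Wls, which carries Wnt proteins to the cell surface, by -0.18. Wnt9a and the extracellular enzyme Notum, which inactivates Wnt proteins, differed by -0.23 and -0.11. Among hedgehog genes, the inhibitor Sufu and the co-receptor Gas1 differed by 0.28 and 0.59. Sufu and Gas1 lay on the same side of 0 as the 5 hedgehog members, and 7 of the 10 further hedgehog genes tested did.

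Of the further genes listed with ectodysplasin, the receptor Eda2r differed by -0.78, Relt by 0.43 and the adaptor Edaradd by 0.33. Smad1, which carries BMP signals to the nucleus, stood higher in every ko library, at 39.5, 41.6 and 43.2 CPM in wt against 51.6, 52.6 and 61.4 CPM in ko (0.41 ± 0.11, adjusted p 0.184 in edgeR). The BMP receptor Acvr1 differed by 0.23 and the activin and BMP antagonist Fst by -1.10. Of the other follicle regulators, Cd34, found on follicle stem cells and also on vessels and fibroblasts, had 0.748, 1.01 and 2.09 CPM in wt against 7.26, 7.98 and 9.34 CPM in ko (2.67 ± 0.37, adjusted p 0.0637). Lrig1, a marker of stem cells of the upper follicle, lay at 141.9, 100.3 and 158.7 CPM in wt against 80.4, 63 and 100.7 CPM in ko (-0.72 ± 0.23, adjusted p 0.26). Runx3 differed by 0.72.

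Markers of the other cell types the samples could hold differed between the libraries too. The 10 fibroblast markers summed to 90.6, 161.7 and 189.6 CPM in wt against 618, 792.1 and 229.6 CPM in ko. Of these, 10 of 10 lay above 0, with a median of 2.02 and 0 called. At an unadjusted p under 0.05 there were 9 (90%, beside 13.2% of all genes), and in 8 the groups did not overlap (80%, beside 19.4%). The endothelial markers summed to 6.25, 5.74 and 6.03 CPM in wt against 25.3, 26.5 and 14.3 CPM in ko, with 8 of 8 tested above 0. All 8 were at an unadjusted p under 0.05 (100%, beside 13.2%) and without overlap of the groups (100%, beside 19.4%), and 0 were called. Of the 10 markers of the dermal papilla, 6 were too low to be tested, among them Corin, Sox2, Rspo3 and Hhip, which lay between 0 and 0.497 CPM in every library. Of the 4 tested, 3 lay above 0, with a median of 0.54, and Enpp2 stood higher in every ko library, at 2.11, 2.5 and 2.49 CPM in wt against 4.37, 4.26 and 3.72 CPM in ko (0.80 ± 0.21, adjusted p 0.179 in edgeR). Most of their sum, 44.5 to 128.5 CPM, came from Ptprz1 (36.5 to 117.7 CPM). The part of these cells in the levels of Fzd1, Eda, Bmp7, Bmp4 and Sfrp1 was not tested.

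Within the follicle, 14 of 15 genes of the hair shaft and cuticle lay below 0. At an unadjusted p under 0.05 there were 6 (40%, beside 13.2% of all genes), 0 were called, and the groups overlapped in all 15. Their sum was 2341, 2644 and 861.2 CPM in wt against 1225, 926.1 and 709.2 CPM in ko. The ko sums were lower among the dated libraries and also in the undated pair, while the undated wt library lay below 2 of the ko libraries. In 10 of the 15 genes ko lay below wt in both collections, beside 17.5% of all genes. Inner root sheath genes, with 10 of 10 below 0 and 0 at an unadjusted p under 0.05, summed to 7141, 12454 and 4219 CPM in wt against 6418, 7125 and 4466 CPM in ko. Wt replicate 2, which had the highest level of Dlx3, Hoxc13, Msx2 and Crym, also had the highest sums of both lists. The part of follicle content in the members' levels was not tested.

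**Figure D5:**
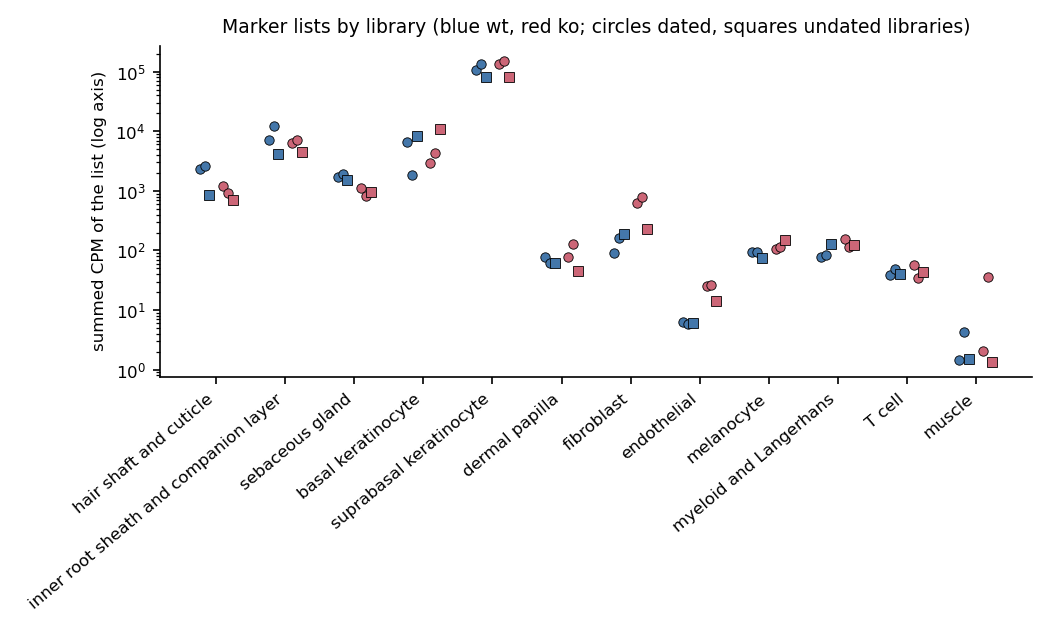
Summed CPM of each marker list (log axis) in each library; each point is 1 library, with squares for the undated ones. Fibroblast and endothelial sums are higher in every ko library, hair shaft sums are lowest in ko replicate 3, and basal sums are highest in the undated libraries.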

How the data were processed

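Libraries were prepared with TruSeq Stranded mRNA and read as 51 bp single ends, per the labels' protocols. The authors deposited raw read counts by Ensembl gene, and TopHat2 2.0.12, Bowtie 1.1, HTSeq and mm10 are named in the submitters' processing notes. Neither the annotation release nor the strand option is named there or in the labels. Reads aligned to several places (32.4 to 40.9% of reads listed), ambiguous reads (0.38 to 0.499%) and reads outside genes (0.341 to 0.377%) stayed out. Symbols matched 40254 of 41214 identifiers; coordinates come from GENCODE M21. edgeR 4.0.16 in R 4.3.3 (filterByExpr, TMM, robust glmQLFit, glmQLFTest) was fitted on all 6 libraries, with group as the only factor and Benjamini-Hochberg adjustment over 13704 genes (threshold 0.05). Each SE is the size of the log2 difference divided by the root of F. Replicates differed beyond counting noise (chi-square per degree of freedom 24.4 to 105). Scripts were tested on simulated data. Alternatives used DESeq2 1.42.0, limma 3.58.1 (voom), other filters and scaling, a covariate for collection or for sex (read from the levels of Xist and Ddx3y), a replicate block and left-out libraries. The members and lists were chosen with earlier results of these data known. All members were named, with the 3 smallest p of each further pathway list and up to 3 markers of a list; 1 gene so named is not reported here. The counts within collections, the counts without overlap under other settings and the older quasi-likelihood fit were added after seeing the data. The floor of 3 counts covers counting error only.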

Additional observations from a re-analysis of the deposited data

How the results depend on the processing

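With 3 libraries per group and 30 genes called by edgeR, the number called depended on the method: 57 with no filter, 18 with 1 CPM in 3 libraries, 650 in DESeq2, 0 in limma-voom, 709 with the collection covariate, 227 with the dated libraries alone, 62 with sex as a covariate and 18 in the older quasi-likelihood fit. It ran from 0 to 64 when each library was left out. The members called were 0 in edgeR and in each of these fits other than DESeq2 (1, Wnt3a) and the collection covariate (1, Sfrp1). Members at an unadjusted p under 0.05 were 6, against 13 with the collection covariate, 11 with the dated libraries alone, 11 with sex and 2 to 10 on leaving out a library. The 7 members without overlap became 18 with the dated libraries alone and 8 to 14 on leaving out a library. For these counts of members the shares of all genes under the same settings are not given, so they have no background beside them. For pairing, each library's log2 CPM was taken as its deviation from the mean of its group, gene by gene. These deviations correlated at -0.19, 0.47 and 0.67 between same-numbered wt and ko libraries. Those of wt replicates 1 and 2 correlated best with ko replicates 3 and 1. Those of wt replicate 3, an undated library, correlated best with ko replicate 3. Deviations within a group sum to 0, so the 3 correlations are not independent. With 1 of the 3 correlations under 0.1, the numbers were not taken to pair the samples. A fit with the number as a replicate block called 354 genes (2.58%) and 1 member (Wnt3, -0.55, adjusted p 0.0464), had 13 members at an unadjusted p under 0.05 and turned Wnt10a to -0.06 and Wnt11 to 0.06.

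Of the 44 members tested, 21 kept 1 direction under every setting and 23 turned under at least 1, none of which differed by more than 0.58 (log2) in edgeR. Their values were -0.00 for Lrp4, -0.01 for Lrp6 and -0.01 for Msx1 with DESeq2 size factors. DESeq2 gave -0.00 for Fzd10, -0.01 for Lrp4, -0.02 for Lrp6, -0.01 for Ctnnb1 and -0.02 for Msx1. In limma-voom, Wnt10a was at -0.08 and Wnt11 at 0.09. With the collection covariate, Wnt10a was at -0.19, Wnt11 at 0.02 and Msx1 at -0.02. The dated libraries alone gave -0.47 for Wnt10a, -0.13 for Fzd10, -0.05 for Lrp6, -0.03 for Ctnnb1, -0.05 for Tcf7l2 and -0.21 for Msx1. With sex as a covariate, Wnt10a was at -0.48, Wnt11 at 0.22, Lrp4 at -0.00, Lef1 at -0.02, Tcf7l2 at -0.20, Msx1 at -0.28, Foxn1 at 0.06 and Lgr5 at -0.13. On leaving out each library, values ran from -0.10 to 0.52 for Wnt5a, -1.66 to 0.08 for Wnt6, -1.21 to 0.73 for Wnt10a, -0.40 to 0.07 for Wnt10b and -0.32 to 0.43 for Wnt11. They ran from -0.00 to 0.19 for Fzd6, -0.09 to 0.09 for Fzd10, -0.12 to 0.08 for Lrp4, -0.11 to 0.07 for Lrp6, -0.02 to 0.06 for Ctnnb1, -0.12 to 0.45 for Lef1, -0.27 to 0.03 for Tcf7l1 and -0.39 to 0.47 for Tcf7l2. The ranges were -0.11 to 1.21 for Wif1, -0.08 to 0.49 for Smo, -0.96 to 0.18 for Edar, -0.58 to 0.35 for Msx1, -0.49 to 0.00 for Msx2, -0.59 to 0.05 for Hoxc13, -0.54 to 0.01 for Foxn1, -0.85 to 0.09 for Lhx2, -0.85 to 1.50 for Lgr5 and -1.53 to 0.17 for Lgr6. The cause of these turns was not tested. Depth limits Dkk1 and Dkk4, at 0 or 1 count per library, and counts of under 1 CPM such as those of Rspo1.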

Other observations

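Genes of the sebaceous gland, which grows out of the upper follicle, had a median log2 difference of -0.98 between ko and wt, and none was called by edgeR. All 7 lay below 0, with 5 at an unadjusted p under 0.05 (71.4%, beside 13.2% of all genes) and 4 whose groups did not overlap (57.1%, beside 19.4%). Their summed level was 1727, 1917 and 1548 CPM in wt against 1125, 831.5 and 954.5 CPM in ko, so the summed levels of the groups did not overlap. Scd1, a desaturase that makes monounsaturated fatty acids, lay at 891.9, 1005 and 952.4 CPM in wt against 483.7, 315.1 and 508.4 CPM in ko (-1.12 ± 0.21, adjusted p 0.0946).

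Melanocyte genes summed to 93.8, 95.1 and 74.1 CPM in wt against 104, 115.7 and 147.8 CPM in ko. All 8 lay above 0, with 4 at an unadjusted p under 0.05 (50%, beside 13.2% of all genes) and 0 called. Dct, an enzyme of melanin synthesis, lay at 37.6, 32.2 and 30.5 CPM in wt against 40.8, 44.1 and 58.8 CPM in ko. Myeloid and Langerhans genes summed to 77.1, 83.1 and 127.2 CPM in wt against 156.3, 112.5 and 123.3 CPM in ko, where the groups overlapped. T cell genes summed to 38.4, 48.2 and 40.4 CPM in wt against 57.4, 34 and 43.1 CPM in ko. Muscle genes, of which 5 of 7 were too low to be tested, summed to between 1.36 and 4.31 CPM in 5 libraries. Their sum was 36.3 CPM in ko replicate 2.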
